A study of Lactuca sativa with 18 samples.

Results

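Midribs of the high-browning romaine cultivar Tall Guzmaine (TG) were compared with those of the low-browning cultivar Parris Island Cos (PC) after 3 days of cold storage. The comparison rests on 4 RNA-seq libraries of 18 in the series, chosen by their labels as the 2 TG and the 2 PC samples of day 3, and it describes all genes counted in them. Both are ancestors of romaine breeding lines, and the series also holds Clemente (CL), a cultivar of medium browning selected from a cross of PC with TG. All groups share the same history: heads were cooled after harvest, trucked under refrigeration and held cold, and the excised midribs were then sliced by hand with a knife and kept cold until freezing. Day 0 pieces were frozen at the start of that cold storage and day 3 pieces after 3 days of it, and no uncut midrib is among the groups. Each browning class is a single cultivar, so differences of browning and other differences between the cultivars cannot be told apart. Nothing in the labels tells whether both samples of a group stem from different heads. The p-values therefore reflect spread between samples of a group, which may be technical. That spread was pooled over the 12 day 0 and day 3 libraries of TG, PC and CL. The files of day 2 were not used.

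Enzymatic browning of cut lettuce begins when wounding brings phenolic compounds into contact with polyphenol oxidases and peroxidases, which oxidise them to quinones that polymerise into brown pigments. Wounding also raises phenylalanine ammonia-lyase, the entry enzyme of the phenylpropanoid pathway, which supplies those phenolics. The midrib is a tissue in which this discoloration is readily seen, since it is pale and rich in vascular tissue. The name table used here (RefSeq, assembly Lsat_Salinas_v11) gives nearly all tested genes a LOC symbol and no product name, so none of the lists of browning enzymes, stress genes or tissue markers could be filled: 0 tested genes matched any of the 22 lists. The genes below are therefore described by their levels, their record type, their neighbours and their level in CL, with no role, and the midrib label was not checked against marker genes.

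The 4 day 3 libraries held 37840518 to 51677762 counts, and a gene with 3 counts in a library stood at 0.0535 to 0.0724 CPM (a count scaled to the same total in every library). Pearson correlations of log2 CPM across the 21757 tested genes, which are not independent replicates, were 0.968 between the TG libraries, 0.974 between the PC libraries and 0.944 to 0.945 between a TG and a PC library. Levels are given as these CPM and are not corrected for gene length, so they compare libraries and not genes. Each gene was tested with edgeR's quasi-likelihood test in a fit of the 12 day 0 and day 3 libraries, and called at a Benjamini-Hochberg adjusted p under 0.05.

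On day 3, 316 of the 21757 tested genes were called different between TG and PC, or 1.45%, with 157 higher in TG (0.722%) and 159 higher in PC (0.731%). Most of these differences were large. With any group mean below 3 counts per library raised to that floor, 307 of the 316 called genes differed at least 2-fold, 147 at least 16-fold and 33 at least 100-fold, and the 33 were split into 14 higher in TG and 19 higher in PC. As fitted, the called genes had a median absolute log2 fold change of 4.19. The median signed log2 fold change over all tested genes was 0.00, a signed value that gives no size to set beside 4.19. In each of the 316 genes both libraries of one cultivar stood above both of the other, which was also the case for 46.6% of all tested genes. The count moved with the fit: the 4 day 3 libraries alone called 889 genes of 19983 tested, the 6 day 3 libraries 1261 of 20549, and DESeq2 on the 12 libraries 834, and these held 307, 314 and 314 of the 316. It fell to 179 without TG replicate 1, 176 without TG replicate 2, 135 without PC replicate 1 and 126 without PC replicate 2.

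**Figure D1:**
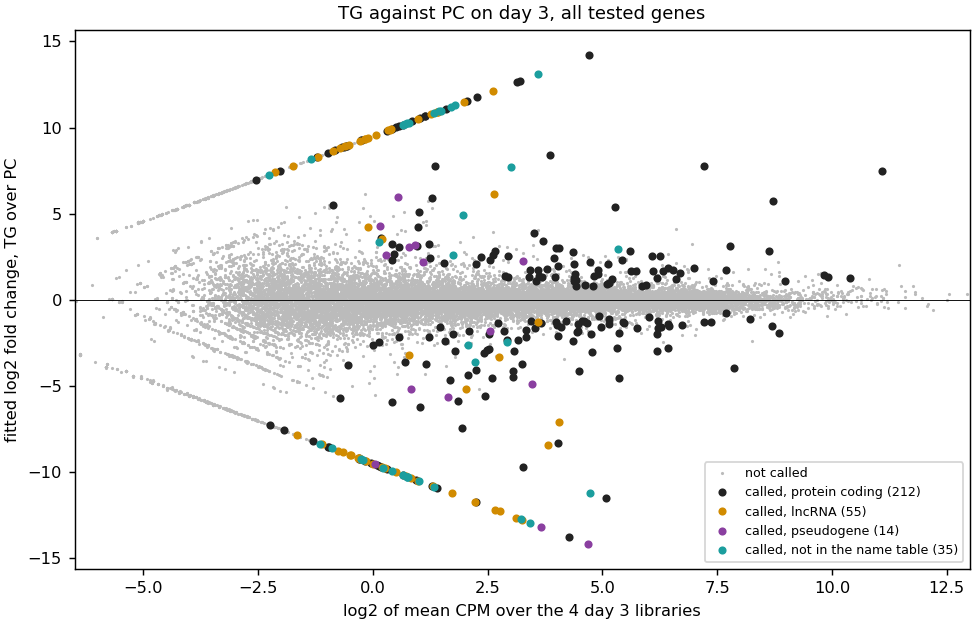
Fitted log2 fold change of TG over PC on day 3 (vertical axis) against the log2 of the mean CPM over the 4 day 3 libraries (horizontal axis), 1 point per tested gene, with the 316 called genes coloured by the type of their gene record. The 2 slanted lines of points are genes with 0 counts in both libraries of one cultivar, whose fitted fold change depends on the prior count; the 55 called long noncoding RNAs lie mostly on them.

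The 8 genes with the largest fitted log2 fold change toward TG were detected in both TG libraries and had 0 counts in both PC libraries. That fitted value depends on the prior count where a group is at 0, so the order is not one of measured size: LOC111908106, outside the 8 and picked after its values had been seen, had 2 and 6 counts in PC against 1339 and 1547 in TG. LOC111921163, a protein-coding gene, stood at 45.1 and 60.0 CPM in TG replicates 1 and 2, which makes it at least 835-fold higher in TG. LOC111877802, also protein coding, stood at 16.9 and 20.1 CPM and was at least 294-fold higher. LOC111883319, another protein-coding gene, stood at 16.5 and 18.7 CPM and was at least 279-fold higher. In all of them the TG libraries lay far closer to each other than to PC, which gave no count. Their choice as called genes without overlap favours such closeness. GeneID_111886954, which the name table does not hold, stood at 29.6 and 19.0 CPM, a wider spread, and was at least 386-fold higher. The remaining genes of this group were the lncRNAs LOC111892365 and LOC111888716 and the protein-coding genes LOC111911451 and LOC111891793. Their mean levels in TG were 12.2, 7.89, 9.62 and 8.28 CPM in that order, again with 0 counts in PC.

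The 8 genes with the largest fitted log2 fold change toward PC likewise had 0 counts in TG. Outside the 8, and picked after its values had been seen, LOC111912663 had 0 and 2 counts in TG against 4011 and 2630 in PC. LOC111893293, recorded as a pseudogene, stood at 50.2 and 52.2 CPM in PC replicates 1 and 2 with 0 counts in both TG libraries, at least 853-fold higher in PC. LOC111900676, a protein-coding gene, stood at 37.3 and 40.5 CPM, at least 648-fold higher. LOC111885247, a pseudogene record, stood at 27.1 and 23.6 CPM, at least 422-fold higher. For each of these genes the PC libraries lay far closer to each other than to TG, which their selection favours. The other members of the group were the lncRNAs LOC111891878, LOC111878188 and LOC111878437, with mean levels in PC of 18.9, 17.5 and 13.6 CPM, and GeneID_111876579 and GeneID_111879541, outside the name table, with 21.4 and 18.7 CPM. All 16 genes of both groups were taken from the called genes, so their adjusted p of 1.44e-05 to 0.00152 (edgeR) follows from that choice. Without any 1 of the 4 day 3 libraries all 16 kept their direction. Their fitted log2 fold changes were then 11.44 to 14.42 toward TG and -12.22 to -14.197 toward PC. These fits share the libraries that chose the genes, so they are not a separate check.

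The day 0 libraries are other samples of the same fit, and gave 0 counts again for most of these genes in the same cultivar. The 8 genes at 0 in PC on day 3 had 0 counts in both PC libraries of day 0 as well, with LOC111921163 at 64.2 and 67.5 CPM in TG. Of the 8 genes at 0 in TG on day 3, 5 had 0 counts in TG on day 0, and LOC111900676, LOC111878437 and GeneID_111879541 had 4, 6 and 2 counts, all in TG replicate 1. Over all tested genes, 50 had 0 counts in both PC libraries of day 3 and at least 1 CPM in both TG libraries, and 51 the reverse, sets defined after the data had been seen. On day 0, 48 of the 50 were again at 0 in PC, the others having at most 2 counts, and 41 of the 51 were again at 0 in TG, where the highest of the rest had 348 counts. The whole pattern, 0 counts in one cultivar and at least 1 CPM in both libraries of the other, recurred on day 0 for 35 of the 50 and 36 of the 51. The median level in the cultivar that expressed them was 3.32 CPM for the 50 and 3.15 CPM for the 51.

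Long noncoding RNAs, transcripts with no evident protein product, made up a larger part of the called genes than of the tested genes. Of 1184 tested lncRNA records 55 were called, or 4.65%, against 212 of 19259 protein-coding genes, or 1.1%. Pseudogene records were called at 4.4% (14 of 318), and GeneIDs that the name table does not hold at 4.31% (35 of 813). These shares were not tested against each other. The filter keeps a gene through the groups where it has counts, so low records can enter the test through the cultivar where they stand high. With no filter on low counts the shares were 3.85% of lncRNAs and 1.2% of protein-coding genes. With DESeq2 they were 7.26% and 3.4%. Of the 55 called lncRNAs, 46 had 0 counts in one cultivar, as had 46 of the 212 called protein-coding genes, and the median absolute log2 fold change as fitted was 9.35 in the former and 2.54 in the latter. Tested lncRNAs also stood lower, with a median level of 1.05 CPM against 10.6 CPM in protein-coding genes. Among genes of 1 to 10 mean CPM the called share was 6.04% for 497 lncRNAs and 1.51% for 5089 protein-coding genes, and of 10 to 100 mean CPM it was 3.09% for 97 and 1.16% for 7783. Under 1 mean CPM it was 3.79% for 581 lncRNAs and 0.549% for 4370 protein-coding genes, while at 100 or more it was 0% for 9 and 1.04% for 2017. The sources used here do not state whether the authors' counting used strand, so reads of overlapping records cannot be told apart; 6 of the 55 called lncRNAs and 11 of the 212 protein-coding genes overlap another record of the name table. In fits of the day 3 libraries alone the gap was narrower, with 7.32% of lncRNAs and 4.13% of protein-coding genes called from 4 libraries and 7.64% and 5.94% from 6. Without single libraries both shares fell, to 2.02% of lncRNAs and 0.38% of protein-coding genes without PC replicate 2 at the lowest and 2.56% and 0.586% without TG replicate 1 at the highest.

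Among the called genes with the highest mean CPM, those higher in TG included 2 that stood far lower in PC. LOC111879914, a protein-coding gene, stood at 4384 and 4302 CPM in TG replicates 1 and 2 and at 29.6 and 19.0 CPM in PC, 179-fold higher in TG (log2 fold change 7.48, SE 1.0, adjusted p = 0.00490, edgeR). LOC111901911, a protein-coding gene, stood at 646 and 1009 CPM in TG and at 16.7 and 14.2 CPM in PC (log2 fold change 5.74, SE 0.45, adjusted p = 0.000222, edgeR). For both genes the gap between cultivars far exceeded that between replicates, which the choice of called genes without overlap favours. The other 4 genes, all protein coding, differed by 2.13-fold to 2.68-fold. LOC111895182 stood at 1568 and 2245 CPM in TG and 789 and 799 CPM in PC (log2 fold change 1.26, SE 0.24, adjusted p = 0.0324, edgeR). LOC111881471 stood at 1177 and 1598 CPM in TG and 553 and 540.3 CPM in PC (log2 fold change 1.34, SE 0.23, adjusted p = 0.0149, edgeR). In this pair TG replicate 2 was well above replicate 1, while the PC libraries nearly coincided. LOC111878171 stood at 1368 and 1278 CPM in TG and 499 and 488 CPM in PC (log2 fold change 1.42, SE 0.26, adjusted p = 0.0217, edgeR). LOC111904129 stood at 691 and 689 CPM in TG and 353 and 294 CPM in PC (log2 fold change 1.09, SE 0.17, adjusted p = 0.0102, edgeR). LOC111901911 passed the edgeR test without any 1 library. LOC111879914 missed it without PC replicate 1 (adjusted p = 0.0791) or 2 (0.0995), LOC111895182 and LOC111881471 missed it without PC replicate 1 or 2 or TG replicate 2 (adjusted p 0.225 to 0.286 and 0.117 to 0.178), and LOC111878171 and LOC111904129 missed it without any of the 4 (adjusted p 0.0889 to 0.207 and 0.0561 to 0.137).

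The called genes of highest mean CPM in the direction of PC, all protein coding, were detected in both cultivars. LOC111884003 stood at 27.1 and 30.2 CPM in TG and at 359 and 519 CPM in PC, 15.3-fold higher in PC (log2 fold change -3.94, SE 0.40, adjusted p = 0.000857, edgeR). LOC111880341 stood at 162 and 224 CPM in TG and at 772 and 679 CPM in PC, 3.76-fold higher (log2 fold change -1.91, SE 0.21, adjusted p = 0.00109, edgeR). Both kept their call without any 1 library. LOC111895670 stood at 213 and 219.97 CPM in TG and 646 and 575 CPM in PC (log2 fold change -1.50, SE 0.24, adjusted p = 0.0104, edgeR). LOC111917862 stood at 93.7 and 95.2 CPM in TG and 224 and 244 CPM in PC (log2 fold change -1.31, SE 0.22, adjusted p = 0.0141, edgeR). The TG libraries of this pair of genes lay within a few CPM of each other. LOC111902131 stood at 150.4 and 229.7 CPM in TG and 449.95 and 357 CPM in PC (log2 fold change -1.09, SE 0.22, adjusted p = 0.0432, edgeR). LOC111899631 showed the smallest difference of the 12 genes, 151 and 154 CPM in TG and 295 and 229 CPM in PC (log2 fold change -0.78, SE 0.16, adjusted p = 0.0497, edgeR). LOC111895670, LOC111917862 and LOC111899631 missed the threshold without any of the 4 libraries (adjusted p 0.0591 to 0.0981, 0.0791 to 0.127 and 0.0765 to 0.462), and LOC111902131 without PC replicate 1 or 2 or TG replicate 1 (0.123 to 0.380).

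**Figure D2:**
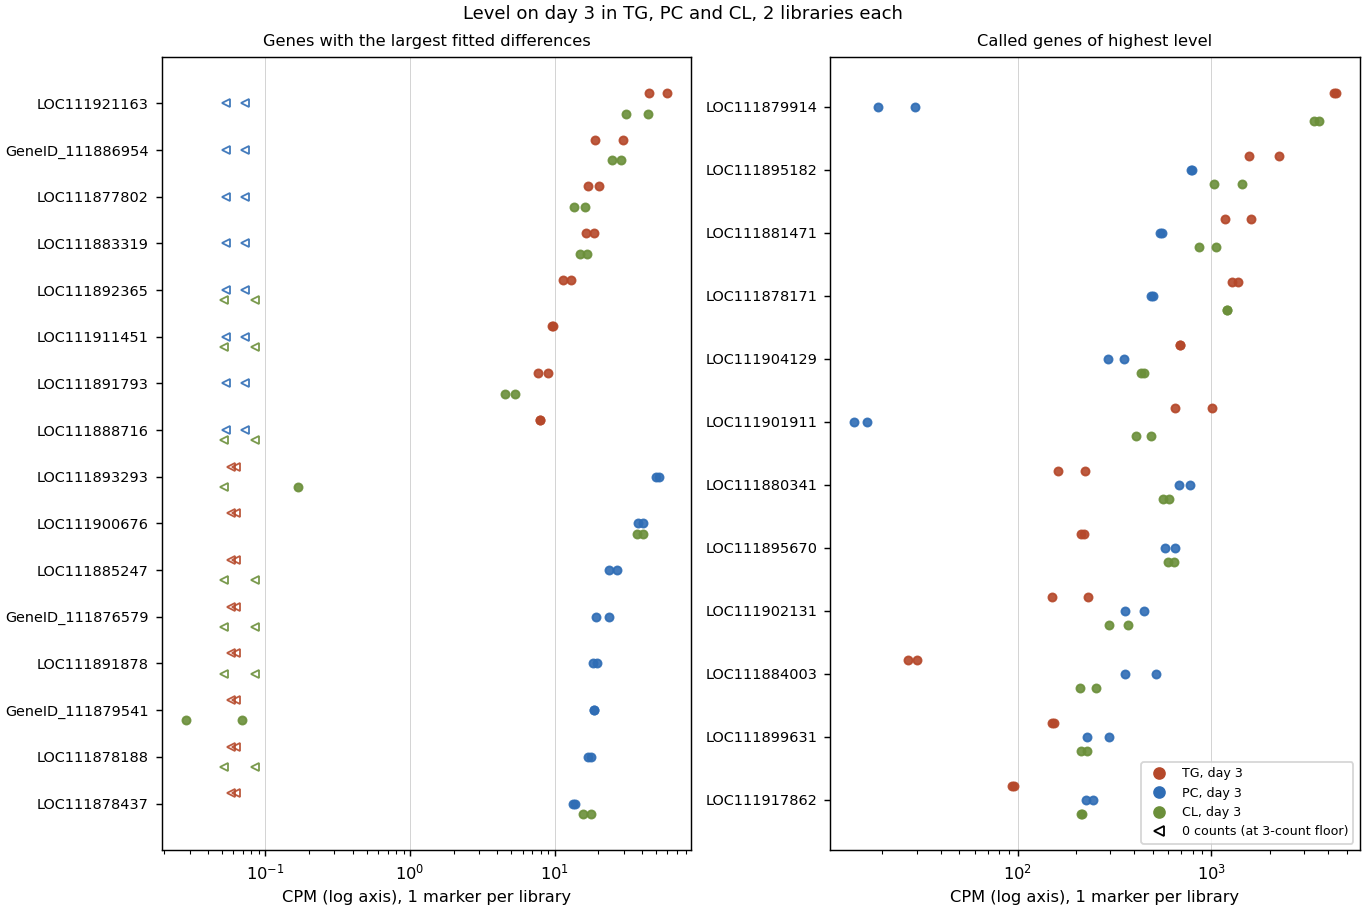
CPM of single genes on day 3 (log axis), with 1 marker per library of TG, PC and CL; open triangles are libraries with 0 counts, drawn at the floor of 3 counts. The left panel holds the 16 genes with the largest fitted differences, each with counts in a single parent, and the right panel the 12 called genes of highest mean CPM, in which both TG libraries lie on one side of both PC libraries.

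Most day 3 differences were also called on day 0. The day 0 libraries are other samples, but they were in the same fit. Its filter and its estimate of spread used both days, so the day 0 calls are not a separate check. Of the 316 genes, 265 were called with the same sign on day 0, where 30.4% of all tested genes were called, and 44 were not called on day 0. The test of the difference between the days, TG minus PC on day 3 less TG minus PC on day 0, passed for 52 of the 316 (16.5%), against 12.2% of all tested genes. It uses the day 3 libraries that also chose the 316. In 17 of the 52 the difference had the same sign and was smaller on day 3, in 15 it was larger on day 3, and in 20 it had the opposite sign. The 20 were all protein coding, as were 47 of the 52 and 19259 of the 21757 tested genes. Of the 20, 10 were higher in TG on day 3 and 10 higher in PC, and 7 were also called on day 0. For the other 13 the sign on day 0 is not established. The number of 52 rests on few libraries: it was 6 when PC day 3 replicate 2 was left out, 7 for PC day 3 replicate 1, 16 for TG day 3 replicate 1 and 27 for TG day 3 replicate 2. Leaving out replicate 1 of day 0 raised it, to 106 in the case of TG and 97 in that of PC.

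**Figure D3:**
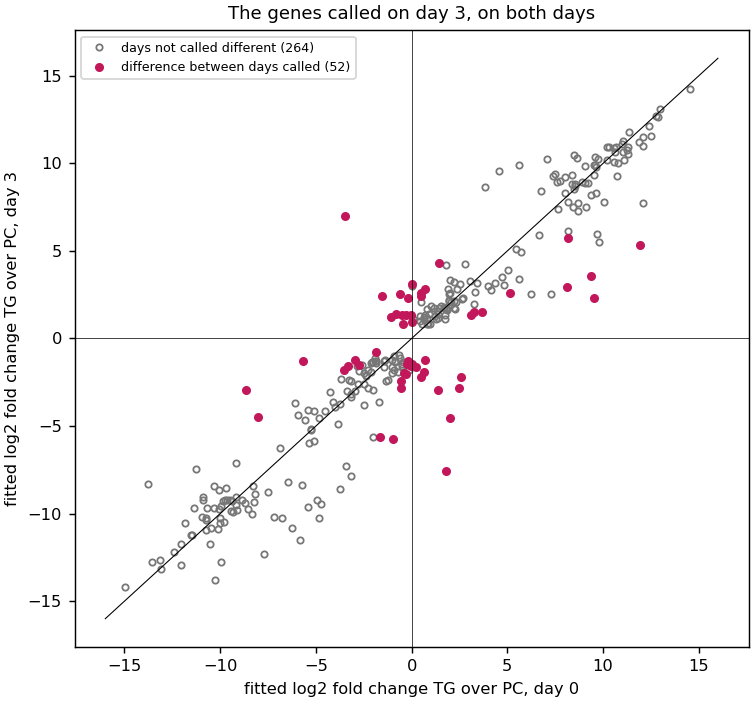
Fitted log2 fold change of TG over PC for the 316 genes called on day 3, on day 0 (horizontal axis) and on day 3 (vertical axis), with the line of equal values. The days share no library but were fitted together. Filled points are the 52 genes for which the difference between days passed the test, 20 of them in the quadrants of opposite sign.

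The 4 genes with the largest opposite difference on day 0 stood low, none above 12.8 CPM in TG or PC on either day. LOC111895257 was higher in TG on day 0, at 3.79 and 7.72 CPM against 1.11 and 0.963 CPM, and higher in PC on day 3, at 9.04 and 11.2 CPM against 1.75 and 1.08 CPM. LOC111903273 likewise went from 4.53 and 3.31 CPM in TG and 1.02 and 0.289 CPM in PC to 0.810 and 0.871 CPM in TG and 4.10 and 3.52 CPM in PC. The groups did not overlap on either day in these genes, and the order of the cultivars turned over. LOC111899503 stood at 4.36 and 2.84 CPM in PC and 0.495 and 0.134 CPM in TG on day 0, and on day 3 at 0 counts in PC and 0.347 and 0.332 CPM in TG, or 18 and 16 counts. LOC111906005 was near 0 in both cultivars on day 0, at 0.228 and 0.358 CPM in TG and 0.139 and 0 CPM in PC, and on day 3 stood at 10.2 and 12.8 CPM in PC against 0.231 and 0.747 CPM in TG. Its day 0 difference was not called (adjusted p = 0.229, edgeR), so it is among those 13 genes. The day 3 call of these 4 genes was lost without any 1 of the day 3 libraries, with adjusted p from 0.0666 to 0.310. Without TG day 3 replicate 1 or 2 the day 3 log2 fold change of LOC111906005 moved from -4.56 to -3.94 and -5.63.

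Higher levels beside such a change between days were found in genes picked after their values had been seen. LOC111901930, a protein-coding gene, was higher in PC on day 0, at 128 and 148 CPM against 63.3 and 32.7 CPM in TG, and higher in TG on day 3, at 25.6 and 26.0 CPM against 3.92 and 5.74 CPM. LOC111891620 was not called on day 0, with 349.6 and 225 CPM in TG and 291 and 359 CPM in PC, and on day 3 stood at 60.6 and 81.7 CPM in TG and 17.0 and 11.7 CPM in PC. LOC111881471, one of the genes of highest CPM above, was likewise not called on day 0 and went from 2691 and 2139 CPM in TG and 3091 and 2934 CPM in PC on day 0 to the day 3 levels given for it. The difference between the days was 3.94 (SE 0.51, adjusted p = 0.00246), 2.49 (SE 0.46, adjusted p = 0.00918) and 1.66 (SE 0.32, adjusted p = 0.00987) on the log2 scale in that order (edgeR quasi-likelihood test). These 3 tests held without any 1 of the 8 TG and PC libraries, with adjusted p up to 0.047. The day 3 call of LOC111901930 was lost without PC replicate 1 or 2 or TG replicate 2 (adjusted p 0.0506 to 0.142), and that of LOC111891620 without PC replicate 2 (adjusted p = 0.117).

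LOC111879795, a protein-coding gene also picked after its values had been seen, was low on day 0 in every cultivar and high on day 3 in TG. On day 0 it stood at 1.07 and 4.74 CPM in TG and at 0 counts in both PC libraries. TG and PC were thus already called different on day 0 (log2 fold change 10.05, adjusted p = 0.00193, edgeR). With PC at 0, that fitted value depends on the prior count. On day 3 it stood at 351 and 239 CPM in TG and at 1.64 and 1.04 CPM in PC, 220.2-fold higher in TG (log2 fold change 7.77, SE 0.75, adjusted p = 0.00119, edgeR). CL resembled TG, with 0.338 and 0.804 CPM on day 0 and 160.04 and 173 CPM on day 3. The call on day 3 held without any 1 of the 4 libraries, with adjusted p up to 0.0321. The test of the difference between days did not pass (-2.28 on the log2 scale, SE 2.90, adjusted p = 0.668, edgeR), in a fit where PC had 0 counts on day 0. A TG to PC difference that arose or grew between the days was therefore not shown for this gene.

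CL, the line bred from both cultivars, was read beside its parents at these genes, from its own 2 day 3 libraries and with no test. With the mean log2 CPM of PC set to 0 and that of TG to 1, CL stood above 0.75 for 144 of the 316 genes, below 0.25 for 115 and between for 57. It was nearer TG for 106 of the 157 genes higher in TG, or 67.5%, and for 66 of the 159 genes higher in PC, or 41.5%. On this log2 scale a CL level midway in CPM lies nearer the higher parent, above all where the other parent is at 0. LOC111909424, with mean CPM of 4.08 in TG, 0 in PC and 2.21 in CL, had a position of 0.867. Both CL libraries lay above all 4 parental libraries for 35 genes and below all 4 for 4. These counts cannot be set against each other, since CL cannot lie below a parent at 0 counts. One parent was at 0 in 46 called lncRNAs, 46 protein-coding genes, 3 pseudogenes and 26 genes outside the name table. The shares over all tested genes were not computed. In LOC111921163, at 31.0 and 44.0 CPM, LOC111877802, at 16.2 and 13.5 CPM, and LOC111879914, at 3379 and 3621 CPM, CL was near the level of TG. In LOC111892365, LOC111911451 and LOC111888716 it had 0 counts like PC. In the other direction CL was near PC in LOC111900676, at 37.2 and 40.4 CPM, and in LOC111878437, at 17.7 and 15.5 CPM, and at 0 counts like TG in LOC111885247, GeneID_111876579, LOC111891878 and LOC111878188. Of the 50 genes at 0 in PC and present in TG, CL had at least 1 CPM in both libraries for 28 and 0 counts in both for 15. Of the 51 at 0 in TG and present in PC, it had at least 1 CPM for 21 and 0 counts for 24. Day 0 libraries of all 3 cultivars placed CL nearer the same parent for 223 of the 265 genes called with the same sign on both days.

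Neighbours of a called gene were called more often than tested genes at large, though most of them were not called. In the gene order of assembly Lsat_Salinas_v11, which may not be the build of the files, 10.3% of the tested genes next to a called gene were called too, against 1.34% of all tested genes with a place in that order. The 29 neighbouring pairs held 20 with the same direction and 9 with opposite directions, and the records of 1 pair overlapped. Fits of the 4 or the 6 day 3 libraries gave 11.7% and 12.8%, beside 4.34% and 6.04% of all placed genes. Without single libraries the share was 6.45% (PC replicate 2) to 8.89% (TG replicate 1), beside 0.499% and 0.724% of all placed genes.

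CL tended to match the same parent at neighbouring called genes, also where their differences ran in opposite directions. It was nearer the same parent in 27 of the 29 neighbouring pairs, among them 8 of the 9 pairs of opposite direction. Over consecutive called genes the share fell with distance: it was 94.1% of 34 pairs with 1 to 5 tested genes between, 79.7% of 59 with 6 to 20, 62.9% of 89 with 21 to 100 and 60.7% of 61 with over 100. The share with the same direction of difference was 69% for direct neighbours, and 58.8%, 52.5%, 44.9% and 52.5% in the classes of growing distance. Of the 281 called genes with a place in the order, CL was nearer TG for 145 and nearer PC for 136, and 183 of the 281 lay in 22 runs of 5 or more consecutive called genes nearer 1 parent. The longest run held 17 called genes nearer TG over 160 tested genes, 13 of them higher in TG and 4 higher in PC. For pairs with up to 5 tested genes between, the share with the same parent was 93.7% of 63 pairs, 70.4% of 487 in the fit of the 6 day 3 libraries and 78% of 255 with DESeq2.

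**Figure D4:**
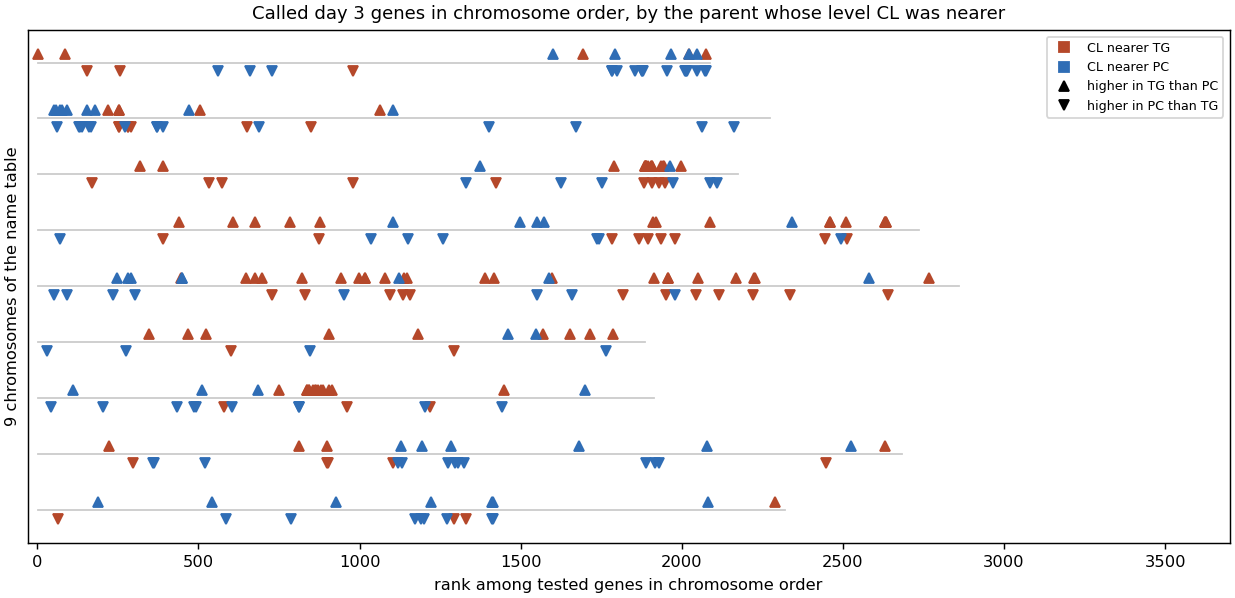
The 281 called genes placed in chromosome order, 1 line per chromosome, with the rank among tested genes on the horizontal axis; triangles point up for genes higher in TG and down for genes higher in PC, and the colour gives the parent whose day 3 level CL was nearer. Stretches of 1 colour hold triangles of both directions, such as the run of 17 genes nearer TG.

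Some of these neighbours, picked after their values had been seen, show the pattern in single libraries. LOC111905498, LOC111905497, LOC111879914 and LOC111879916 follow each other among the tested genes. The lncRNA LOC111905498 stood at 0 counts in TG and CL and at 2.46 and 1.57 CPM in PC. The next gene, LOC111905497, stood at 151 and 156 CPM in TG, 52.1 and 53.1 CPM in PC and 155 and 149 CPM in CL. LOC111879914 followed, with CL near the level of TG as given above. LOC111879916 stood at 0.116 and 0.664 CPM in TG, 6.53 and 9.60 CPM in PC and 0.447 and 0.394 CPM in CL. So PC was higher in the outer genes and TG in the inner ones, and CL lay with TG in each. A stretch on the side of PC was LOC111895286, LOC111895278 and LOC111895275. The lncRNA LOC111895286 stood at 0 counts in TG, 2.55 and 4.54 CPM in PC and 2.34 and 3.10 CPM in CL. LOC111895278 stood at 145 and 116 CPM in TG, 24.0 and 20.4 CPM in PC and 29.6 and 23.2 CPM in CL. LOC111895275 stood at 123 and 107 CPM in TG, 20.7 and 19.2 CPM in PC and 31.1 and 26.4 CPM in CL. CL lay near PC in these 3 genes, whichever parent was higher. LOC111895286 kept its call without any 1 library (adjusted p up to 0.00975, edgeR). The calls of LOC111905498 and LOC111895278 were lost without any 1 of the 4 (adjusted p 0.108 to 0.190 and 0.0790 to 0.236), those of LOC111879916 and LOC111895275 without TG replicate 1 or either PC replicate (adjusted p 0.0604 to 0.198 and 0.0647 to 0.143), and that of LOC111905497 without either PC replicate (0.0510 to 0.0604). The log2 fold change of LOC111879916 moved from -4.37 to -3.59 without TG replicate 1 and to -6.10 without replicate 2.

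Other neighbours paired a gene at 0 counts in one cultivar with a gene that differed less or the other way. The pseudogene record LOC111885247, at 0 counts in TG, is next to the protein-coding gene LOC111885246, which had 0 counts in PC and stood at 2.78 and 2.14 CPM in TG. CL had 0 counts of the former and 1.03 and 1.63 CPM of the latter, like TG in both. LOC111877802, at 0 counts in PC, is next to LOC111877800, which stood at 509 and 873 CPM in TG, 93.2 and 101 CPM in PC and 373 and 492 CPM in CL. LOC111891793, at 0 counts in PC, is next to the lncRNA LOC111891801, which stood at 13.1 and 11.6 CPM in TG, 0.160 and 0.193 CPM in PC and 13.7 and 13.96 CPM in CL. In each of these pairs CL was nearer TG. A run of 5 tested genes, LOC111911533, LOC111911532, LOC111911530, LOC111911528 and LOC111909424, was higher in TG throughout, with CL nearer TG at positions of 0.66 to 0.996. Their mean levels in TG were 2.11, 0.488, 3.47, 1.30 and 4.08 CPM in that order. LOC111885246, LOC111877800, LOC111891801 and LOC111909424 kept their calls without any 1 library, with adjusted p up to 0.0221 (edgeR). The calls of LOC111911533, LOC111911532 and LOC111911530 were lost without any 1 of the 4 libraries (adjusted p 0.0870 to 0.224, 0.117 to 0.240 and 0.117 to 0.239) and that of LOC111911528 without either PC replicate (0.0654 to 0.0791).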

How the data were processed

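The authors deposited counts per NCBI GeneID for each sample, with 64021 rows per file. Per the submitters' processing notes the tools were featureCounts, STAR 2.4.0i, Trim Galore, FastQC, DESeq2 and R 3.6.1, listed without role. Genome build, annotation and strand setting: not given in the sources used here. Rows were summed per GeneID (46150 GeneIDs, 7574 on several rows). Of values of 100 or more, 68.3% to 74.6% were even, so a count may not be 1 independent fragment; floors cover counting error only. Genes were filtered with filterByExpr in edgeR 4.0.16 under R 4.3.3, and a robust quasi-likelihood model with TMM scaling and 6 cultivar and day groups was fitted to the 12 day 0 and day 3 libraries; DESeq2 1.42.0 was an alternative. SE was taken as the absolute log2 fold change over the root of F. Replicates differed by more than sampling noise: with counts halved, chi-square per degree of freedom was 36.9 in TG and 21.6 in PC on day 3 and 56.9 to 85.1 on day 0.

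GeneIDs were matched to the RefSeq name table, which holds 20944 of the 21757 tested genes. Genes named are, among called genes whose TG and PC libraries do not overlap, the 8 with the largest fitted log2 fold change and the 6 with the highest mean CPM in each direction, and the 4 with the largest opposite difference on day 0 whose difference between days passed. Parts of the rule on enzyme lists named no gene, and 17 further genes, and LOC111908106 and LOC111912663, were chosen after their values were seen. Members, lists and rules were chosen with earlier results of these data known. Alternatives changed scaling, filter, tool, libraries in the fit, mate counting and repeated GeneIDs, and left out single libraries.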

Additional observations from a re-analysis of the deposited data

Results flagged for a closer look

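The TG to PC difference of day 3 was set against that of day 0 in a test of the difference itself. It differed between the days for 52 of the 316 called genes (16.5%), against 12.2% of all tested genes. Among the genes named, TG minus PC was larger on day 3 than on day 0 by 1.66 on the log2 scale for LOC111881471, by 1.23 for LOC111895670, by 1.05 for LOC111899631, by 3.12 for LOC111895275, by 3.94 for LOC111901930 and by 2.49 for LOC111891620. It was smaller on day 3 for LOC111901911, at -2.42, for LOC111903273, at -4.75, for LOC111895257, at -5.30, for LOC111906005, at -6.56, and for LOC111911533, at -2.52. The sign was the same on both days in 4 of these genes, which were further apart on day 0: LOC111901911 stood at a log2 fold change of 8.16 on day 0 and 5.74 on day 3, LOC111911533 at 5.15 and 2.62, LOC111895670 at -2.73 and -1.50, and LOC111899631 at -1.83 and -0.78. The value of LOC111899503 was 10.46, with 0 counts in PC on day 3, so it depends on the prior count. The adjusted p-values ran from 0.00219 for LOC111903273 to 0.0428 for LOC111911533 (edgeR quasi-likelihood test). Leaving out 1 of the 8 TG and PC libraries ended the call in 8 of 8 cases for LOC111911533, in 5 for LOC111895670, in 4 for LOC111901911 and in 2 each for LOC111899631 and LOC111906005, and in none for the other 7 genes. For LOC111906005 these were TG day 0 replicate 2 (adjusted p = 0.0727) and PC day 3 replicate 2 (0.0521). For LOC111899631 they were TG and PC day 3 replicate 2, for LOC111901911 both PC day 3 libraries, TG day 3 replicate 1 and TG day 0 replicate 2, and for LOC111895670 all 4 day 3 libraries and TG day 0 replicate 1. LOC111906005 ranged from -11.31 to -5.60 over the 8 fits.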

How the results depend on the processing

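The number of genes called between TG and PC on day 3 was 316 and moved by over 1.5 times under these settings: 889 with the 4 day 3 libraries, 1261 with the 6 day 3 libraries, 834 with the DESeq2 test and 198 with a minimum of 5 CPM in 2 libraries, which also tests fewer genes (13903). Without 1 of its 4 libraries it was 126 to 179. The number of these genes whose difference also differed between days was 52, and became 258 with the DESeq2 test, 23 with the 8 TG and PC libraries, and 6 to 106 without 1 library. The cause was not tested. The other alternatives run kept the day 3 number within 1.5 times, at 215 to 401. Without a scaling factor it was 318, split into 145 higher and 173 lower in TG. All 49 genes singled out kept their direction in every alternative run; 25 passed in all of them and 24 missed the threshold in at least 1. Replicate numbers did not pair the samples: deviations of same-numbered libraries correlated by 0.01 between TG and PC on day 3 and by -0.09 to 0.07 over the 15 pairs of groups. With the replicate block 245 genes were called on day 3, 239 of them among the 316, and 35 differed between days. Counts for lists of named enzymes could not be run, since the lists were empty, nor the pairs of CL parents in the fits without CL libraries. Genes near the floor of 3 counts per library, 0.0535 to 0.0724 CPM, are limited by depth.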

Other observations

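The share of tested genes called on day 3 was 0.911% under 1 mean CPM, 2.38% from 1 to 10, 1.25% from 10 to 100 and 1.03% at 100 or more. Over the 9 chromosomes of the name table it ran from 0.819% to 1.78%. Of the 20 genes whose fitted difference had the opposite sign on day 0, CL was nearer PC for 14 and nearer TG for 6 on day 3. Only 7 of the 20 were called on day 0, and CL stood between 0.25 and 0.75 for 9 of them. Among all 316 called genes CL was nearer PC for 144 and nearer TG for 172.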
